A study of Arabidopsis thaliana with 5 samples.

Results

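The small nucleolar ribonucleoprotein (snoRNP) core proteins were followed through 9 genes, chosen by the particle their products belong to, out of 33602 loci in the deposited tables. Box H/ACA snoRNPs were represented by 4 genes, NOP10 (AT2G20490), NAP57 (AT3G57150), GAR1 (AT3G03920) and NHP2 (AT5G08180). Box C/D snoRNPs were represented by 5 genes, FIB1 (AT5G52470), FIB2 (AT4G25630), NOP56 (AT1G56110) and the NOP58 loci AT5G27120 and AT3G05060. The genes were chosen with the smr1 to Col-0 values of these libraries known, so those values are given as a description. Counts of genes called are printed beside the share of all loci called, and nothing rests on them.

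Root nuclei of the Arabidopsis thaliana mutant smr1 gave 3 libraries and those of the accession Col-0 gave 2. SMR1 encodes a cyclin-dependent kinase inhibitor, and both genotypes carried a GUS-GFP reporter under its promoter, so that the nuclei sorted for GFP are those in which this promoter was active. Seedlings grown together on mesh were harvested at 5 days as tips of 0.5 cm, and each library came from 120000 nuclei sorted after protoplasting. The kind of smr1 allele is not given in the sources used here.

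In all eukaryotes, snoRNPs modify ribosomal RNA in the nucleolus, guided by the small nucleolar RNA (snoRNA) that each particle holds. Box H/ACA particles convert uridine to pseudouridine, with the NAP57 protein (dyskerin in animals, Cbf5 in yeast) as the enzyme and NOP10, GAR1 and NHP2 as its partners. Box C/D particles methylate the ribose of target nucleotides, with fibrillarin as the enzyme and NOP56 and NOP58 as the scaffold that holds the guide. Their genes are known to be active in growing and dividing plant cells, where ribosomes are made.

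Library totals lay between 24918795 and 26823753 reads. SMR1 itself (AT3G10525) stood at 4.70 to 7.06 CPM (reads scaled by library total and TMM factor) in the smr1 libraries, against 10.97 and 21.6 CPM in Col-0, so reads remained in the mutant at a lower level. Every library held reads of the root meristem and root hair markers looked up, except that BBM was at 0 in Col-0 replicate 4. The libraries are biological replicates by the series' design text, which does not say whether they came from separate sowings.

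NOP10 is the shortest of the 9 coding sequences, and its values rest on the fewest reads, so the sequence that gathers them is shown. The deposited model AT2G20490.1 is 195 nt long and holds 64 codons before the stop, and all NOP10 reads were assigned to it. The same length was found for the coding sequence of RefSeq's annotation on TAIR10.1, where the gene lies at chr2:8831681-8832929 on the plus strand. It is given here with the coding strand read 5′ to 3′.

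NOP10 coding sequence: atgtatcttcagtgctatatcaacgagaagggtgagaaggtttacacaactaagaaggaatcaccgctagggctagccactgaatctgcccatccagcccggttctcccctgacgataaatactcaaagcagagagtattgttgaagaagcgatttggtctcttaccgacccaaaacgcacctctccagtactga

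The bases before their annotated starts were searched for motifs known from promoters of plant genes of ribosome production. The telo-box was searched as AAACCCTA, and the site II element as TGGGCC or TGGGCT, on both strands and over the 250 bases before the start of each gene in RefSeq's annotation of TAIR10.1. Overlapping matches of the same motif were merged, and in these 9 windows no telo-box overlapped a site II match. The telo-box stood in 3 of the 9 windows (FIB1, NOP56 and AT5G27120), against 4.49% of 27438 windows of protein-coding genes. Site II stood in 7 of the 9, all but NHP2 and FIB2, against 19.2% of those windows. Both motifs stood in 3 of the 9, against 1.36%. Over 19333 windows of protein-coding genes that passed the filter on low counts, the shares were 3.80%, 22.35% and 1.41%, in the same order. The only match of AT3G05060 began 21 bases before its start and ran over the edge of the neighbouring gene AT3G05070. A match here is a run of letters and not a site of binding.

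The windows below show the arrangement in the gene with the greatest fold, in the fibrillarin pair, which differ in motif content, and in a NOP58 gene with both motifs. Capitals mark the matches, and GGCCCA and AGCCCA are site II read on the other strand. Stretches that overlap another annotated gene are left off, so the NOP10 window (chr2:8831616-8831680, plus strand) has 65 bases and the AT5G27120 window (chr5:9540667-9540860, plus strand) has 194 bases. The FIB1 window is chr5:21293897-21294146 and the FIB2 window chr4:13073840-13074089, both on the plus strand of TAIR10.1.
NOP10: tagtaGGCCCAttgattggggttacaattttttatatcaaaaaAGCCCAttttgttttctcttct
FIB1: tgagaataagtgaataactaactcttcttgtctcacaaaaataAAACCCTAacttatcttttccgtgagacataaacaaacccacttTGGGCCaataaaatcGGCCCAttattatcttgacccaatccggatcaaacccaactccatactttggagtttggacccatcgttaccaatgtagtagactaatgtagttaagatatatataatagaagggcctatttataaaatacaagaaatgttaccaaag
FIB2: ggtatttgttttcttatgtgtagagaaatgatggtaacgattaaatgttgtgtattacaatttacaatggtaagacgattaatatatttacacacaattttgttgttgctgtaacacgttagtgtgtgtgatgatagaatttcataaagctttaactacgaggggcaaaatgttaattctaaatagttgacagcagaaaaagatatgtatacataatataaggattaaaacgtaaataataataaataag
NOP58 (AT5G27120): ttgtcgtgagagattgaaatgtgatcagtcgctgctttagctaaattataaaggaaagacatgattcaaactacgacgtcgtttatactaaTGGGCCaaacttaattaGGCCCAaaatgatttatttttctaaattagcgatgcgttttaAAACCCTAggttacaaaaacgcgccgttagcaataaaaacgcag

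In NOP10, the site II matches began 60 and 22 bases before the start, and another at 78 lay in the part shared with the neighbouring gene AT2G20480. In FIB1 they began 163 and 148 bases before it, downstream of a telo-box at 207. In AT5G27120 the order was reversed, with site II at 103 and 86 and the telo-box at 44 bases before the start. The FIB2 window held neither motif, which says only that these letters are not in these bases.

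All 9 genes were higher in smr1, with no overlap between the 3 smr1 values and the 2 Col-0 values. Over all 20151 loci tested, 13.7% had their lowest smr1 value above their highest Col-0 value. The log2 fold changes of smr1 over Col-0, as fitted by edgeR, lay from 0.64 to 2.45, or 1.56-fold to 5.47-fold. Their median was 1.42 over the 4 box H/ACA genes and 1.22 over the 5 box C/D genes, beside 0.0065 over all loci tested. A positive log2 fold change was found in 9 of 9 members and in 51.2% of loci tested. The members were chosen with this contrast known, and nothing is read from these shares.

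By edgeR's quasi-likelihood test adjusted over all loci, 0 of the 9 passed at 0.05, where 0.00496% of loci (1 locus) were called higher. At an unadjusted p under 0.05, edgeR listed 9 of 9 as higher, where 3.96% of loci were so listed. DESeq2 called 4 of 9 higher (NOP10, NAP57, FIB2 and NOP56), where it called 0.169% of loci higher, and limma voom called 0. In sorted nuclei measured in bulk, more nuclei of a type and more RNA per nucleus cannot be told apart.

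**Figure D1:**
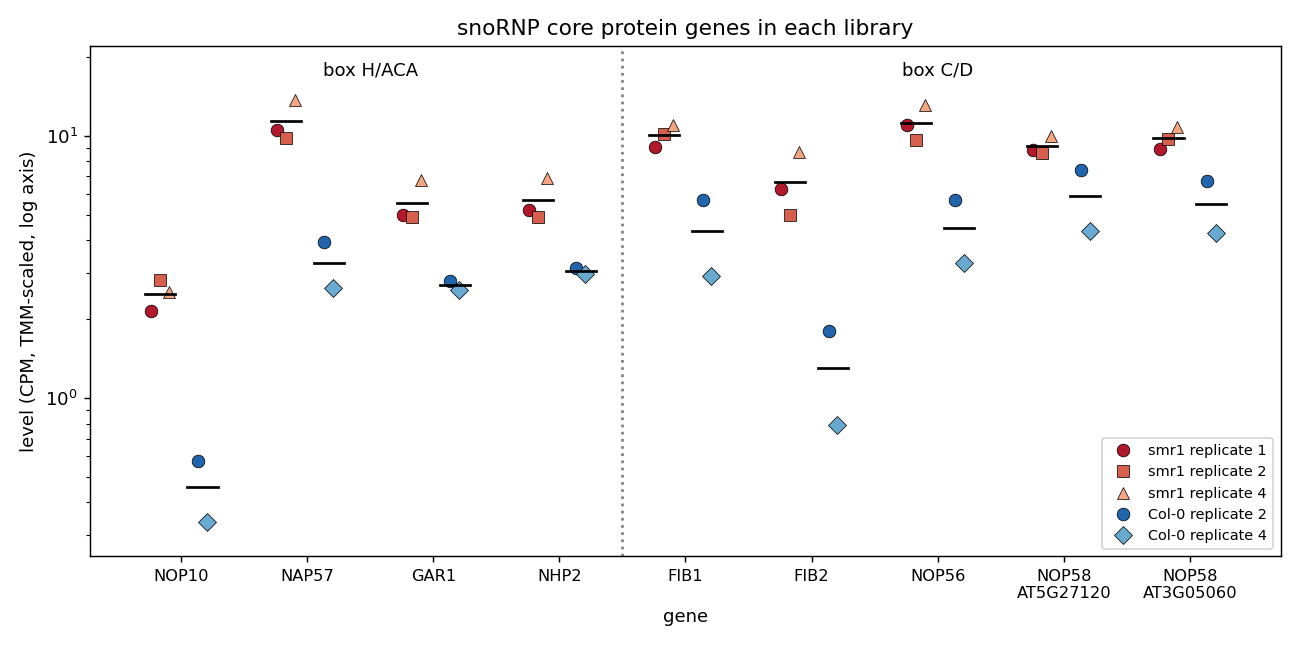
Level of each snoRNP core gene in each library (CPM scaled by TMM factors, log axis), with smr1 to the left of Col-0 for each gene and a bar at each group mean. The 3 smr1 points lie above both Col-0 points in all 9 genes, with the widest gap for NOP10 and the narrowest for AT5G27120, and Col-0 replicate 4 is the lowest library throughout.

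Among the box H/ACA genes, NOP10 had the greatest fold. NOP10 encodes a small protein that binds the pseudouridine synthase directly in yeast and human particles. It gathered 55, 76 and 69 reads in smr1 replicates 1, 2 and 4, against 14 and 9 reads in Col-0 replicates 2 and 4. As CPM these were 2.15, 2.81 and 2.54 in smr1, against 0.575 and 0.337 in Col-0. The lowest smr1 library was 3.74-fold above the highest Col-0 library. The log2 fold change was 2.45 with a standard error (SE) of 0.33, rank 16 from the top among the 20151 loci tested.

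NAP57, the pseudouridine synthase itself, had the second greatest fold of the box H/ACA genes. Its coding sequence of 1698 nt is a single exon in RefSeq's annotation, and it gathered 269, 265 and 373 reads in smr1, against 96 and 70 in Col-0. As CPM these were 10.5, 9.81 and 13.7 in smr1, against 3.94 and 2.62 in Col-0. The log2 fold change was 1.79 ± 0.26 (SE), and smr1 replicate 4 was the highest library.

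GAR1 and NHP2 had smaller folds and nearly equal counts in both Col-0 libraries. GAR1, which joins the particle late in its assembly in yeast and human cells, stood at 5.01, 4.92 and 6.76 CPM in smr1, against 2.79 and 2.59 CPM in Col-0. Its log2 fold change was 1.05 ± 0.23 (SE). NHP2, of the L7Ae family of RNA-binding proteins, stood at 5.20, 4.92 and 6.87 CPM in smr1, against 3.12 and 2.96 CPM in Col-0, with a log2 fold change of 0.90 ± 0.22 (SE). For both genes smr1 replicates 1 and 2 lay close together and replicate 4 stood above them. NHP2 has a pair of deposited models, each 471 nt long, and its reads were divided equally between them, so the sum over models is the value that can be read.

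Among the box C/D genes, the fibrillarin genes differed more from each other than the NOP58 loci did. Fibrillarin is the methyltransferase of the particle. FIB2 had 160, 135 and 236 reads in smr1, against 44 and 21 in Col-0, which is 6.26, 5.00 and 8.68 CPM in smr1 and 1.81 and 0.787 CPM in Col-0. Its log2 fold change was 2.36 ± 0.41 (SE), the widest SE of the 9. FIB1 had 9.07, 10.1 and 10.96 CPM in smr1, against 5.71 and 2.92 CPM in Col-0, with a log2 fold change of 1.22 ± 0.29 (SE).

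NOP56, a scaffold protein of the particle, stood at 10.95, 9.66 and 13.05 CPM in smr1, against 5.67 and 3.26 CPM in Col-0. Its log2 fold change was 1.33 ± 0.27 (SE). The NOP58 loci, whose products form the other side of the scaffold, had the smallest folds of the 9. AT3G05060 stood at 8.88, 9.73 and 10.8 CPM in smr1, against 6.74 and 4.27 CPM in Col-0, with a log2 fold change of 0.83 ± 0.23 (SE). AT5G27120 stood at 8.80, 8.62 and 9.96 CPM in smr1, against 7.39 and 4.35 CPM in Col-0, with a log2 fold change of 0.64 ± 0.25 (SE). The smr1 libraries of AT5G27120 were separated from Col-0 replicate 2 by a factor of only 1.17 at the closest.

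All 9 genes had a lower CPM in Col-0 replicate 4 than in Col-0 replicate 2, by a margin that varied between genes, and for some the fold depended on which Col-0 library was used. With Col-0 replicate 4 left out, the log2 fold changes of AT5G27120, AT3G05060 and FIB1 were 0.30, 0.53 and 0.81. From the other Col-0 library, with replicate 2 left out, they were 1.06, 1.19 and 1.77. The median log2 fold change of the box C/D genes was 0.81 in the first case and 1.77 in the second, while that of the box H/ACA genes was 1.25 and 1.60. In the same order, NOP10 was at 2.104 and 2.87, FIB2 at 1.87 and 3.06, NOP56 at 0.98 and 1.77, and NAP57 at 1.51 and 2.103. GAR1 was at 0.985 and 1.0965, and NHP2 at 0.85 and 0.93. NAP57, GAR1 and NHP2 moved by less than the spread between replicates in both cases. FIB2 and NOP56 did so only with Col-0 replicate 4 left out.

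Summed over each class, the box H/ACA genes reached 22.9, 22.5 and 29.9 CPM in smr1, against 10.4 and 8.51 CPM in Col-0. The box C/D genes reached 44.0, 43.2 and 53.5 CPM in smr1, against 27.3 and 15.6 CPM in Col-0. The classes did not differ in a way that held across libraries. Box H/ACA genes took 34.2%, 34.2% and 35.9% of the reads of the 9 genes in smr1, against 27.6% and 35.3% in Col-0, so the groups overlapped. The ranges of log2 fold change within the classes overlapped too, from 0.90 to 2.45 for box H/ACA and from 0.64 to 2.36 for box C/D.

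Levels between genes were compared as deposited TPM, which is scaled by the effective length of each model. In each smr1 library NOP10 had the highest TPM of the 9, with 26.1, 33.0 and 28.8 TPM. In Col-0 NHP2 was the highest, with 6.56 and 6.43 TPM, and NOP10 came next within its spread, with 6.40 and 3.87 TPM. NOP10's TPM rests on an effective length of only 55.3 to 57.5 nt out of 195, so its level relative to longer genes is less certain than its difference between groups. Below NOP10 in smr1 came NHP2 at 12.5 ± 2.04 TPM, FIB1 at 8.81 ± 0.67 and GAR1 at 8.40 ± 1.39 (SD, n = 3), of which FIB1 and GAR1 did not differ beyond their spread.

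The other 5 genes were close to one another in smr1, from FIB2 at 5.55 ± 1.48 TPM to AT5G27120 at 4.22 ± 0.28 TPM (SD, n = 3), and neighbours in that order overlapped. In Col-0 FIB2 was the lowest of the 9 in both libraries, with 1.43 and 0.641 TPM. AT5G27120 was the lowest in each smr1 library. The ratio between the highest and the lowest of the 9 was between 6.30 and 8.24 in the smr1 libraries, against 4.59 and 10.03 in Col-0.

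Within gene families, the copies took unequal shares of the reads. FIB1 and FIB2 are 84.8% identical over 921 aligned coding bases, with a longest identical stretch of 44 nt. How well reads were divided between related loci could not be checked from the tables, so all shares within families are uncertain. FIB2 took 40.8%, 33.0% and 44.2% of the fibrillarin reads in smr1, against 24.0% and 21.2% in Col-0. The smr1 shares lay above both Col-0 shares, although the 95% Wilson intervals of smr1 replicate 2 (28.6% to 37.7%) and Col-0 replicate 2 (18.4% to 30.7%) overlapped. The NOP58 loci, 82.6% identical over 1587 bases, contributed nearly equally, with AT5G27120 at 49.8%, 47.0% and 48.0% in smr1, against 52.3% and 50.4% in Col-0. The smr1 shares of AT5G27120 lay below both Col-0 shares, although the Wilson intervals of all 5 libraries overlapped. NOP56 took 91.6% to 93.7% of the reads it shares with its related locus AT3G12860 in smr1, against 92.6% and 91.6% in Col-0.

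GAR1 has a second locus, AT5G18180, that is 78.5% identical over 563 aligned bases. It stood at 2.89, 3.63 and 3.38 CPM in smr1, against 3.70 and 2.21 CPM in Col-0, so its groups overlapped, with a log2 fold change of 0.16 ± 0.27 (SE). The GAR1 member AT3G03920 took 63.4%, 57.6% and 66.7% of the reads of the pair in smr1, against 43.0% and 53.9% in Col-0. The smr1 shares lay above both Col-0 shares. Each smr1 interval, that of replicate 2 being 51.1% to 63.8%, overlapped that of Col-0 replicate 4 (45.3% to 62.3%).

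The fourth core protein of box C/D particles, SNU13 in yeast, has 3 related loci in the list, all annotated as L7Ae family proteins. AT4G12600 stood at 4.46, 3.44 and 4.26 CPM in smr1, against 1.52 and 0.450 CPM in Col-0, with a log2 fold change of 2.05 ± 0.46 (SE). AT5G20160 stood at 5.44, 5.37 and 5.85 CPM in smr1, against 4.60 and 2.74 CPM in Col-0, with a log2 fold change of 0.60. AT4G22380 lay lower in each smr1 library, at 1.13, 1.52 and 1.47 CPM, against 2.01 and 1.57 CPM in Col-0, although smr1 replicate 2 and Col-0 replicate 4 were nearly equal and the log2 fold change was -0.38 ± 0.27 (SE). AT4G12600 took 40.4%, 33.3% and 36.8% of the reads of the 3 loci in smr1, against 18.7% and 9.45% in Col-0, and these groups did not overlap.

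**Figure D2:**
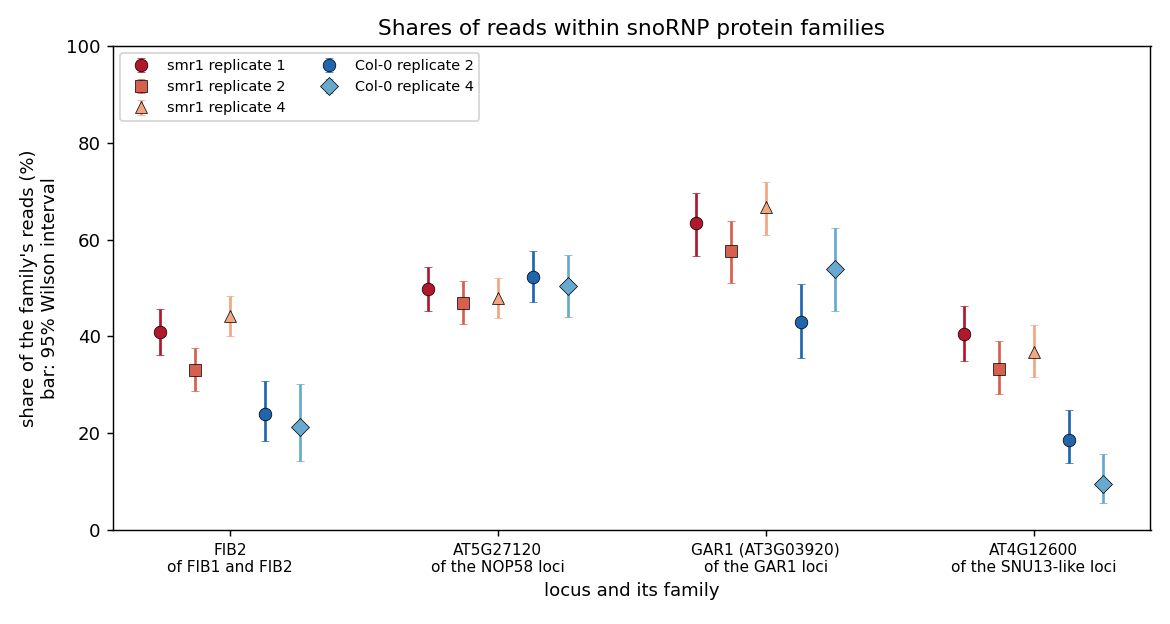
Share of a family's reads taken by the named locus in each library (percent, with 95% Wilson intervals that cover counting error only), with the smr1 libraries to the left of Col-0. FIB2, GAR1 and AT4G12600 take larger shares in all smr1 libraries than in Col-0, although some intervals of FIB2 and GAR1 overlap between the groups. The NOP58 loci stay close to equal in all 5, with AT5G27120 slightly lower in smr1 and all intervals overlapping.

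Of the 19 associated genes listed, 17 passed the filter on low counts, and FIB3 (AT5G52490) was listed at 0 in all 5 libraries. The median log2 fold change of the 17 was 0.60, with 15 positive and 2 negative. The smr1 values did not overlap those of Col-0 and were higher in 10 of the 17 (13.7% of all loci tested), and lower in 1, AT4G22380 (10.1%). By edgeR 0 of the 17 passed over all loci, where 0.00496% of loci were called higher. At an unadjusted p under 0.05, edgeR listed 6 higher and 0 lower, beside 3.96% and 2.89% of all loci tested. DESeq2 called 1, AT4G12600, higher, where it called 0.169% of loci higher. Leaving out Col-0 replicate 4 gave a median of 0.27.

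Another list held 5 genes of proteins associated with U3, the box C/D snoRNP needed to cut the precursor of small ribosomal subunit RNA. Their median log2 fold change was 0.96. All 5 had their lowest smr1 value above their highest Col-0 value, as did 13.7% of all loci tested. PWP2 stood at 3.56, 4.03 and 5.11 CPM in smr1, against 3.33 and 2.29 CPM in Col-0. MPP10, YAO and IMP4 had log2 fold changes of 0.96, 0.85 and 0.98, with SEs of 0.31, 0.34 and 0.29, and IMP3, with the fewest reads in Col-0, had 1.32 with an SE of 0.48.

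The assembly factors, which load core proteins onto snoRNAs and are not part of the finished particle, had log2 fold changes nearer 0 in most cases. Their median log2 fold change was 0.14 over the 7 tested of 8 listed. RVB1, an ATPase of the assembly machinery, stood at 6.61, 5.96 and 6.03 CPM in smr1, against 6.61 and 6.04 CPM in Col-0, with a log2 fold change of -0.03 ± 0.16 (SE). NAF1, which precedes GAR1 on the immature box H/ACA particle in yeast, had 0.14 with an SE of 0.22. The HIT-type zinc finger gene AT5G63830 and the NOLC1-like gene AT5G57120 had 0.085 and 0.27. Only AT5G57120 and the HIT-type gene AT4G28820, 2 of the 7, were higher in smr1 without overlap, beside 13.7% of all loci tested. AT4G28820, with 6 to 22 reads per library, had a log2 fold change of 1.06 ± 0.46 (SE).

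**Figure D3:**
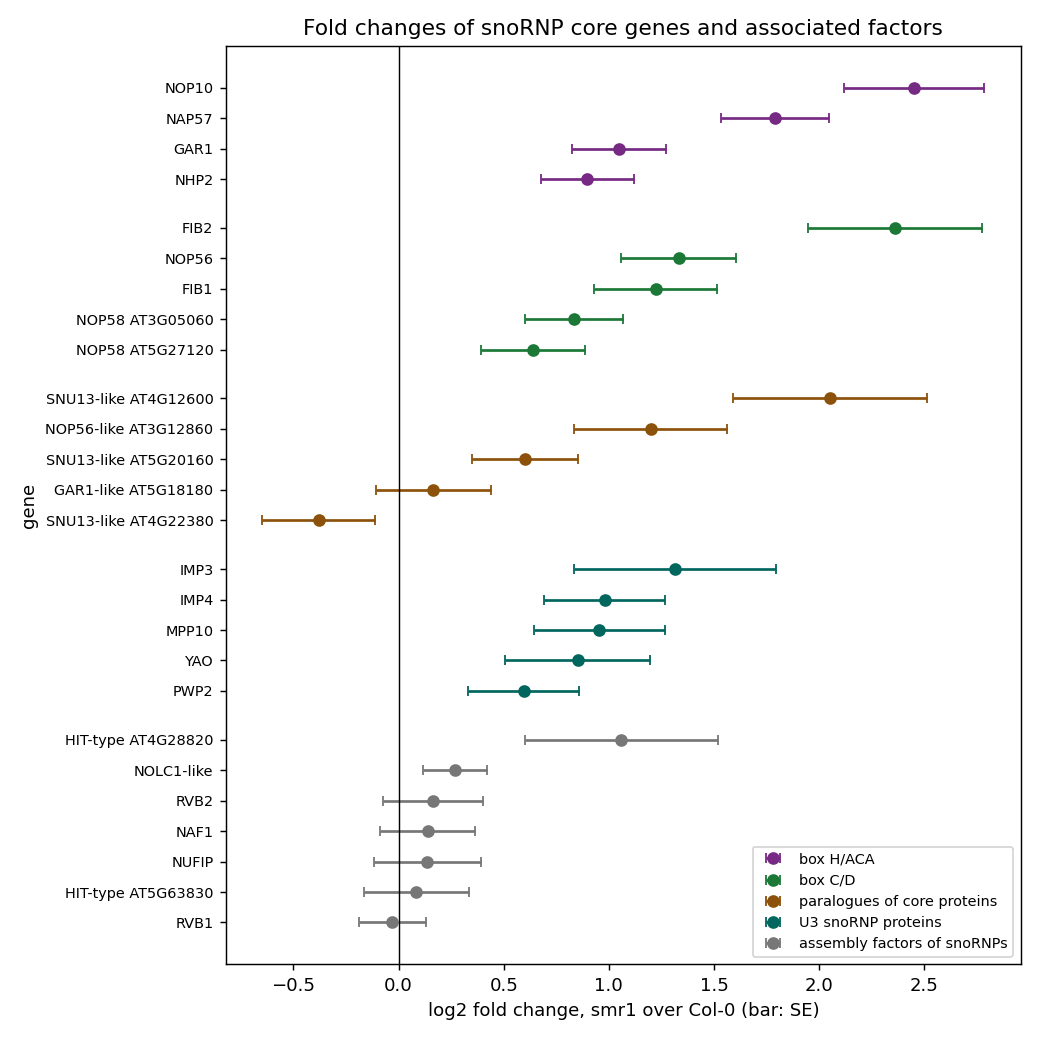
Log2 fold change of smr1 over Col-0 with its standard error for the 9 core genes and the 17 associated genes that were tested. The core genes run from 0.64 to 2.45 and the U3 proteins from 0.60 to 1.32, and the assembly factors other than AT4G28820 from -0.03 to 0.27.

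Markers of the cells that the sorted nuclei could hold differed unevenly between the groups. The 6 meristem markers summed to 11.6, 15.4 and 8.93 CPM in smr1, against 12.5 and 5.10 CPM in Col-0, so the groups overlapped, with BBM at 0 in Col-0 replicate 4. PLT1 and PLT2, 2 of the 4 that passed the filter on low counts, were higher in smr1 without overlap, beside 13.7% of all loci tested. BBM and AGL42 did not pass it, with at most 11 reads in any library, but were also higher in every smr1 library than in both Col-0 libraries. WOX5 was high in smr1 replicate 2 and Col-0 replicate 2, at 3.96 and 4.56 CPM, and at 0.625 to 0.978 CPM in the other 3. The meristem sum was second lowest in smr1 replicate 4. PLT3 was the largest part of the sum in every library, with 5.66 of the 8.93 CPM in smr1 replicate 4. In that library PLT1, PLT2, BBM and AGL42 were above both Col-0 libraries, while PLT3 and WOX5 were not. Of the root hair markers 2 of 6 and of the secondary wall cellulose synthases 3 of 3 were lower in smr1 without overlap, beside 10.1% of all loci tested. The root hair sum was 25.7, 15.95 and 26.1 CPM in smr1, against 23.2 and 34.3 CPM in Col-0, and the secondary wall sum was 755, 803 and 877 CPM in smr1, against 972 and 938 CPM in Col-0. The part of these cell types in the snoRNP values was not tested.

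Genes of green shoot tissue summed to 32.2, 23.6 and 1.65 CPM in smr1, against 13.35 and 5.17 CPM in Col-0. RBCS1B, RBCS2B and RBCS3B were at 0 in smr1 replicate 4 and in both Col-0 libraries, and LHCB2.1 was at 0 in smr1 replicate 4 and Col-0 replicate 4. With smr1 replicates 1 and 2 left out, an alternative chosen after seeing the data, since they held reads of all 7 of these genes, the median log2 fold change was 1.69 for box H/ACA and 1.34 for box C/D. The remaining library, smr1 replicate 4, was the highest of the 5 for 8 of the 9 core genes. The higher medians therefore follow from which smr1 library was kept. Col-0 replicate 2, at 13.35 CPM, was kept, so green reads were not balanced between the groups. The part of green tissue in the snoRNP values was not tested.

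**Figure D4:**
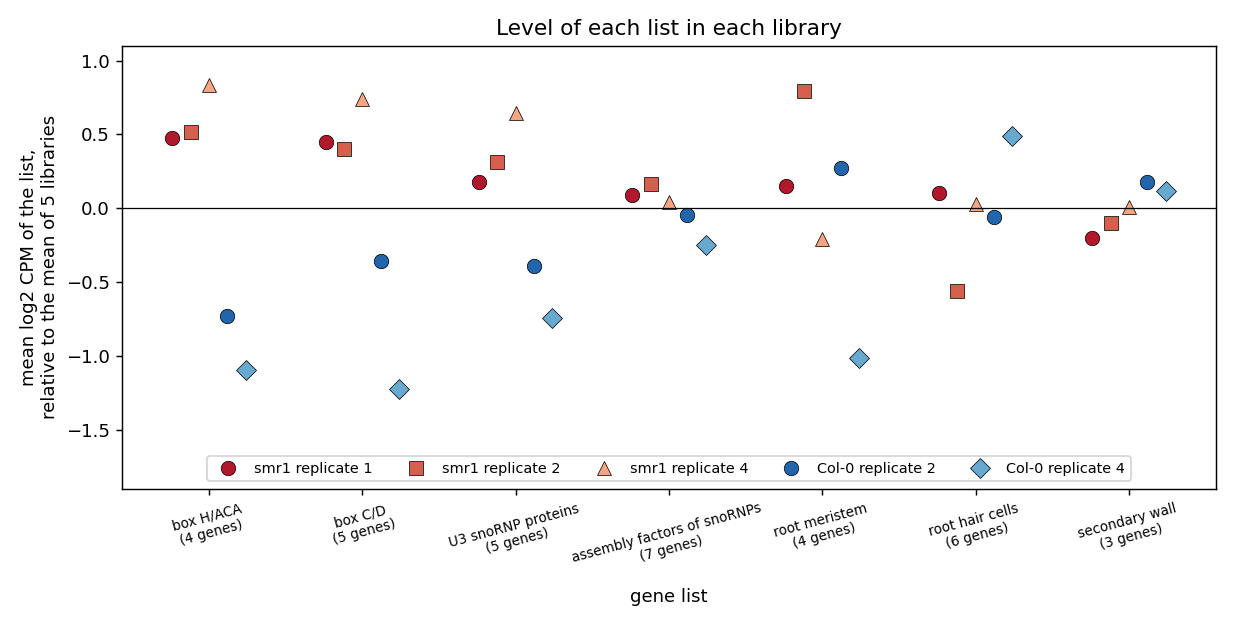
Mean log2 CPM of each gene list in each library, relative to the mean of the 5 libraries, with smr1 to the left of Col-0. Both snoRNP classes, the U3 proteins and the assembly factors have all 3 smr1 libraries above both Col-0 libraries. The box H/ACA level runs from 0.47 to 0.83 in smr1, against -0.73 and -1.10 in Col-0. The assembly factor level runs from 0.040 to 0.16 in smr1, against -0.046 and -0.25 in Col-0. The secondary wall level is lower in all 3 smr1 libraries, while the meristem and root hair levels overlap.

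The profile of the 9 genes over the 5 libraries was common among other loci. Of 17439 loci with a mean of at least 1 CPM, 896 had a Pearson correlation above 0.9 with the mean profile of the members, over 5 libraries that share their groups. The closest were AT5G27330, a prefoldin chaperone family gene, RPS15A, which encodes a ribosomal protein of the small subunit, and CLASP, a microtubule-associated protein, followed by NAP1;1, a nucleosome assembly protein, and AT5G41970. Their correlations were between 0.997 and 0.999. AT5G27330 stood at 3.43 ± 0.70 CPM in smr1 (SD, n = 3) and 1.03 ± 0.40 CPM in Col-0 (SD, n = 2), whereas CLASP stood at 204 ± 2.73 and 191 ± 4.02 CPM, so a like profile did not mean a like fold. Closest to NOP10 alone were HAT2, AT1G30880, AT1G22730, DIM1A, an rRNA adenine dimethylase family gene, and SRS2, with correlations between 0.996 and 0.999.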

How the data were processed

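RNA of sorted root nuclei was measured in 3 smr1 and 2 Col-0 libraries. Per the file headers, the deposited tables hold expected counts and TPM for each transcript model, with its length and effective length. The submitters' processing notes name Salmon 0.7.2, CASAVA and TAIR10 but state no roles. How strand was treated and reads were filtered is not stated in the sources used here. Lengths are mostly multiples of 3 (93.4%), so models hold coding sequence, and reads from untranslated regions mostly go uncounted.

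Per locus, the expected counts of its models were added and rounded. The test was edgeR 4.0.16 under R 4.3.3 (loci kept by filterByExpr at count 10 and total 15, TMM factors, robust quasi-likelihood F test on genotype, Benjamini-Hochberg adjustment over 20151 loci at 0.05, 3 residual degrees of freedom, two-sided). Each SE is the log2 fold change divided by the root of its F statistic. CPM values were scaled by TMM factors. DESeq2 1.42.0 and limma 3.58.1 were alternatives. No pair of libraries held identical values. Libraries were also compared by a chi-square per degree of freedom over loci, which is lower for pairs more alike. The lowest value, 14.8, was that of Col-0 replicate 2 with smr1 replicate 2. Pairs across genotypes ran from 14.8 to 53.5 and pairs within smr1 from 19.5 to 25.7, while the Col-0 pair stood at 43.8. By this measure libraries were not more alike within a genotype.

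The 9 genes, the other lists and the tests were chosen with earlier results of these data known. All 9 members and SMR1 are named, and from each associated list up to 4 genes with the highest mean count; IMP3, AT3G12860, AT4G28820, FIB3 and the markers stand outside that rule and were chosen after their values were seen. Sequences and coordinates come from the RefSeq annotation of TAIR10.1, whose name differs from the build in the labels, and no coordinates were converted. All 12 member models had the length of a RefSeq coding sequence, as did 96.7% of the models of coding loci. Intervals (95%, Wilson) and a floor of 3 reads, which is 0.112 to 0.120 CPM before TMM scaling, cover counting error only, since reads are not independent molecules.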

Additional observations from a re-analysis of the deposited data

How the results depend on the processing

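The number of loci called higher was 1 by edgeR, 30 by DESeq2, 0 by limma voom, 3 without the expression filter and 2 with the replicate number as a block, and 0 with any 1 library left out. The number called lower was 0 by edgeR, 11 by DESeq2 and 0 with any 1 library left out. With a Col-0 library left out, the lone Col-0 sample is assumed to vary like the smr1 samples. The labels use the numbers 2 and 4 in both genotypes, and same-numbered deviations from the group mean correlated at 0.40 and 0.19. The deviations of the 2 Col-0 libraries mirror each other, so these correlations are not separate evidence. With 2 pairs and no shared day in the labels, the numbers were not taken as a pairing. With the replicate block, the medians were 1.47 for box H/ACA and 1.34 for box C/D.

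The median log2 fold change of box H/ACA lay between 1.25 and 1.60, that of box C/D between 0.81 and 1.77 and that of the associated genes between 0.27 and 0.62 with a library left out, with both extremes of box C/D coming from the 2 Col-0 libraries. With smr1 replicates 1 and 2 left out, an alternative chosen after seeing the data, the box H/ACA median was 1.69. For smr1 it rested on replicate 4 alone. Of 117 member values under an alternative, 105 moved by less than the spread between replicates, 12 by more, and 0 changed sign. That spread includes the gap between the 2 Col-0 libraries. All 12 came with Col-0 replicate 2, Col-0 replicate 4 or smr1 replicates 1 and 2 left out, and none from a refit of all libraries. The cause was not tested. Reads limit NOP10 most, with 9 and 14 in Col-0.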

Other observations

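The snoRNAs that these proteins bind were sampled only in part, since most annotated snoRNA genes are not among the deposited models. RefSeq annotates 287 snoRNA genes on TAIR10.1, of which 71 are among the deposited models used here and 43 had a read in some library. They summed to 51.5, 52.4 and 72.35 CPM in smr1, against 63.6 and 60.7 CPM in Col-0, so the groups overlapped, unlike those of the core proteins. The kit named in the labels is for mRNA, and most mature snoRNAs lack the tail such kits select. FIB1 and FIB2 each carry a U60 snoRNA gene within an intron, annotated as AT5G52471 and AT4G25631. Both were listed at 0 reads in all 5 libraries, which allows up to 3 reads in each. RefSeq also places snoRNA features AT5G01495, AT5G01505 and AT5G01515 within NHP2 and not inside an exon. Their product is named only as other RNA, and they are not among the deposited models.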
